A study of Mus musculus with 13 samples.

Results

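The complement genes described here are 32 components, regulators and receptors, chosen by symbol from a list of the pathway, of 14911 genes measured in whole injured hamstring muscle. Transcripts were measured in female C57BL/6 mice at day 4 after cardiotoxin (0.32 mg/kg), a cobra venom protein that lyses muscle fibres, was injected into the muscle. All mice were injured. The 4 saline mice (numbered 1, 2, 3 and 5) and the 9 dexamethasone mice (numbered 1 to 9) received daily intraperitoneal injections, the latter of the synthetic glucocorticoid dexamethasone at 10 mg/kg. Each library came from a single mouse. Per the submitters, every dexamethasone mouse had heterotopic bone in its injured muscle, and a saline mouse with such bone was left out, so effects of the drug and of bone cannot be told apart. Uninjured muscle was not analysed here, nor was bone volume per mouse.

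Complement is a cascade of plasma proteases and binding proteins that marks dead cells and microbes. The classical arm starts when C1q, with its proteases C1r and C1s, binds a surface and cleaves C4 and C2, and the lectin arm reaches the same step through collectins and MASP proteases. The alternative arm amplifies deposited C3 through factors B and D and properdin, and all arms lead to the small attractants C3a and C5a and to the membrane pore of the terminal components. In injured muscle, macrophages make C1q and carry the receptors, and fibroblast-like cells make many of the soluble components.

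The libraries held 25531487 to 34942266 reads assigned to these genes. Muscle identity was clear in every library, with 8 of 8 myofibre markers measured and a summed level of 110487 to 168427 CPM (read counts scaled to library size) in saline and 77583 to 114360 CPM in dexamethasone libraries. Saline library 3 stood apart in neutrophil markers, with a list mean of 4.53 log2 CPM against -0.24 to 2.29 in the other 12 libraries. Dexamethasone library 4 held the highest dexamethasone value for 10 of the 32 complement genes and the lowest for 5. Among the 4 saline libraries, library 3 held the lowest saline value for 16 of the 32 and library 5 the highest for 13. In whole tissue, fewer cells of a type and less RNA per cell cannot be told apart.

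Under dexamethasone, 5 of 7 receptor genes rose, the C1q chains stayed within the saline range, and regulators moved in both directions. The protease genes C1ra, C1s1, Masp1 and Cfb fell, while C1rl, C2 and Cfd, also protease genes, did not pass an adjusted p of 0.05. The membrane attack component C7 rose 4.68-fold, the macrophage receptor Vsig4 5.83-fold and the C5a receptor C5ar1 2.32-fold. Cfb, the protease of the alternative convertase, was 1.45-fold lower, and Cd55, which dismantles that convertase, was 1.34-fold lower. Of the 32 genes, 18 passed an adjusted p of 0.05 in limma (56.2%), where 48.1% of all genes did. By direction, 11 were higher (34.4%, background 25.2%) and 7 lower (21.9%, background 22.9%). The median log2 fold change was 0.01 over the 32 genes and 0.01 over all genes. Among called genes, a rise of at least 2-fold was found for 3 of 32 (C7, Vsig4 and C5ar1; 9.38%, background 2.5%) and a fall of that size for 0 of 32 (background 2.69%). A fold of at least 1.5 in either direction among called genes was found for 5 of 32, against 13.5% of all genes. In 8 of 32 the groups did not overlap, 5 of them higher and 3 lower, against 25.8% of all genes (12.9% in each direction). The shares called lower, at least 1.5-fold changed (15.6%) and without overlap (25%) lay near those of the whole table, and the shares called higher and raised at least 2-fold lay above them. None of these shares was tested as a property of the set.

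**Figure D1:**
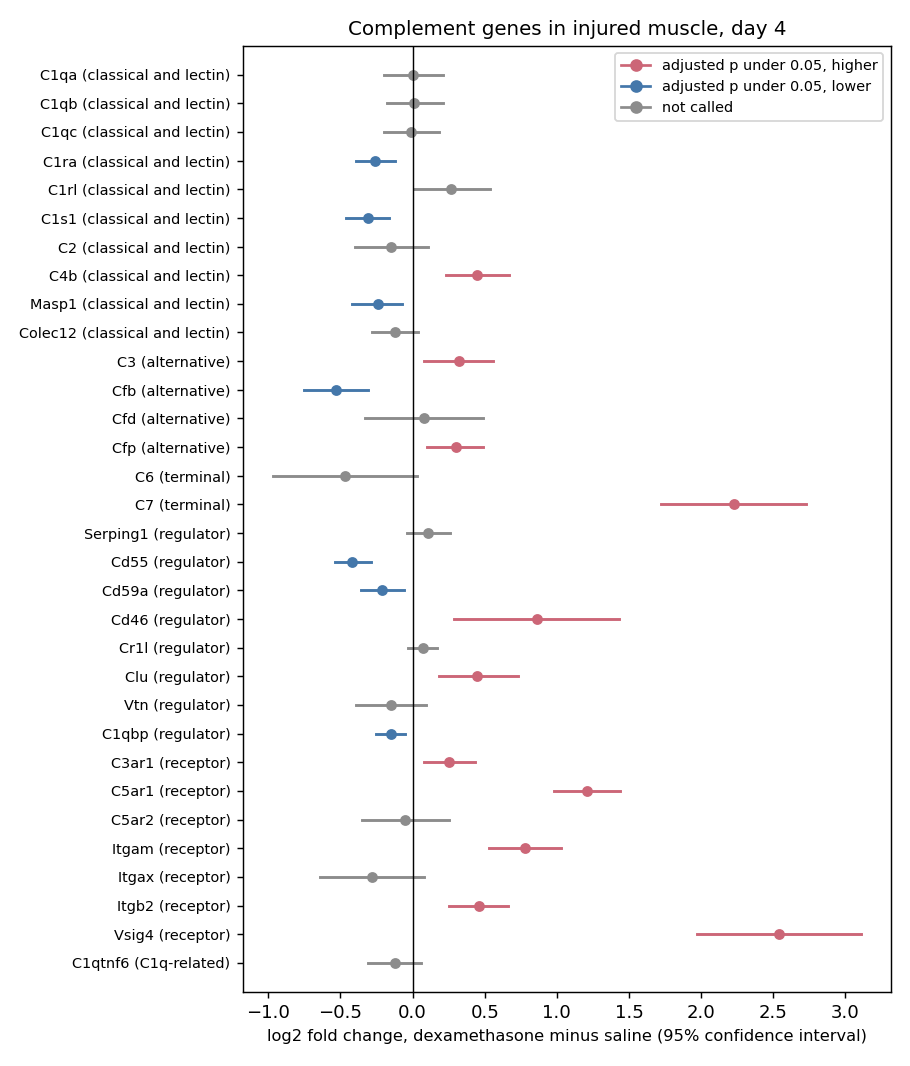
Log2 fold changes of the 32 complement genes, dexamethasone minus saline (points, with 95% confidence intervals as lines), ordered by arm; red genes passed an adjusted p of 0.05 as higher, blue as lower, grey did not pass. C7 and Vsig4 lie above 2 on the log2 scale, and the 3 C1q chains lie at 0.

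Because C7, Vsig4 and C5ar1 had the largest rises at 2-fold or more, the bases before their starts are shown, 250 for each, 5′ to 3′ on the gene's strand, from RefSeq on GRCm38.p6. The C7 window is chr15:5063774-5064023, the Vsig4 window chrX:96293439-96293688 and the C5ar1 window chr7:16259339-16259588, all on the minus strand. The C5ar1 window precedes the start that the table uses, and the gene's outermost annotated start, at 16259540, lies inside it. Capitals mark a match to the STAT motif.
C7: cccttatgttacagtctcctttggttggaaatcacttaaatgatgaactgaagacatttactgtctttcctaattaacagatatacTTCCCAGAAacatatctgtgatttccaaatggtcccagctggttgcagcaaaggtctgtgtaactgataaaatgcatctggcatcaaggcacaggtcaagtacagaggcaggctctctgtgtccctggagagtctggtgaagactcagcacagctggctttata
Vsig4: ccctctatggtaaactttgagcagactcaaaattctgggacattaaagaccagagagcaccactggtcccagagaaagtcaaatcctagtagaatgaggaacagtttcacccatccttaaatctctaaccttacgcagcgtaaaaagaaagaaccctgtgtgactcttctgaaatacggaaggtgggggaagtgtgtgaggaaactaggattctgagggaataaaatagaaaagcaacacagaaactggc
C5ar1: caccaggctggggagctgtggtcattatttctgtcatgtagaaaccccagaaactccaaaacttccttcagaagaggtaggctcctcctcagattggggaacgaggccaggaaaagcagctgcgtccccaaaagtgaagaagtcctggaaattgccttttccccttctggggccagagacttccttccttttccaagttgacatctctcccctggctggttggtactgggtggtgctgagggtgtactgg
Both strands were searched for the motifs of the glucocorticoid receptor (the inner letters ACANNNTGT), C/EBP (TTGCNNAA), STAT (TTCNNNGAA), NF-kappaB (GGANTTTCC), PU.1 (GAGGAAGT) and AP-1 (TGANTCA), chosen after the values were seen. Longer letters for the glucocorticoid receptor and NF-kappaB were searched first and then shortened, which for the glucocorticoid receptor let in the Itgax match counted here. The C7 window held a STAT match, TTCCCAGAA, beginning 164 bases before the start, and the windows of Vsig4 and C5ar1 held no match to any of the 6. Of 32851 windows of that length in the RefSeq table, 7.02% held a STAT match, 5.84% a glucocorticoid receptor match, 9.56% a C/EBP match, 1.07% an NF-kappaB match, 2.44% a PU.1 match and 6.75% an AP-1 match. Windows were found for 23 of the 32 genes, of which 4 held the C/EBP letters, 4 the AP-1 letters, 1 each the STAT, PU.1 and glucocorticoid receptor letters, and 0 the NF-kappaB letters. A match is a description of the letters only.

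Of the 7 receptor genes 5 were higher and 0 lower, where 25.2% of all genes were higher and 22.9% lower. C5ar1 encodes the receptor through which C5a attracts neutrophils and macrophages. It stood at 4.32, 4.44, 4.32 and 4.54 log2 CPM in saline libraries 1, 2, 3 and 5, and at 5.36 (lowest), 5.61 (median) and 6.15 (highest) in the 9 dexamethasone libraries. The groups did not overlap, and the highest value belonged to dexamethasone library 4. The log2 fold change was 1.21 ± 0.11 (SE; limma adjusted p 6.7e-07), and 1.15 without dexamethasone library 4. C5ar2, the related C5a receptor that does not signal through G proteins, lies beside C5ar1 on chromosome 7. It had a log2 fold change of -0.05 (95% confidence interval -0.35 to 0.25), with 62 to 116 reads in dexamethasone libraries. Within each library, C5ar2 minus C5ar1 went from -2.94 ± 0.17 to -4.20 ± 0.39 on the log2 scale (SD, n = 4 and 9; exact two-sided permutation test, adjusted p 0.0028 over 6 pairs of members), so the neighbours moved unequally. C3ar1, the receptor for C3a, rose 1.19-fold (limma adjusted p 0.0191), and this call ended without saline library 1 (adjusted p 0.0791) or 2 (adjusted p 0.0523). C3ar1 minus C5ar1 went from 1.58 ± 0.09 to 0.62 ± 0.15 (exact permutation, adjusted p 0.0028).

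Vsig4 encodes the receptor of resident macrophages that binds C3b and iC3b. It was a low transcript in saline, at -1.29, -1.20, -0.63 and -0.60 log2 CPM, which are 10 to 21 reads. The dexamethasone libraries ran from 0.84 through a median of 1.48 to 2.74, or 62 to 186 reads. Every dexamethasone library lay above every saline library, and library 4 was again the highest. The log2 fold change was 2.54 ± 0.27 (SE; limma adjusted p 3.07e-06), and 2.40 without dexamethasone library 4. On the scale of log2 of CPM plus 1 it was 1.43 (limma adjusted p 2.4e-05), so the size of the change of this low gene depends on the scale. When low genes were filtered out (mean log2 CPM under 1), 29 of the 32 genes remained, and Vsig4, Cd46 and C6 did not.

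Itgam and Itgb2 encode the chains of complement receptor 3, which binds iC3b. Itgam had 5.59, 6.01, 6.19 and 6.24 log2 CPM in saline libraries and 6.56, 6.78 and 7.16 as lowest, median and highest in dexamethasone. Itgb2, the chain shared by these receptors, had 5.89, 6.13, 6.49 and 6.43 in saline, and 6.57, 6.63 and 6.92 in dexamethasone. Neither gene overlapped between groups. Itgam rose by 0.78 ± 0.12 (SE; limma adjusted p 7.09e-05) and Itgb2 by 0.46 ± 0.10 (limma adjusted p 0.00125). Itgax, which pairs with Itgb2 in complement receptor 4 and marks dendritic cells and some macrophages, went the other way in its mean. Its log2 fold change of -0.28 (95% confidence interval -0.64 to 0.08) did not pass, but it passed without saline library 2, at -0.50 (limma adjusted p 0.0153). Itgam minus Itgax rose from 0.68 ± 0.43 to 1.74 ± 0.40 (exact permutation, adjusted p 0.0028), with no overlap between groups. Most dendritic cell markers were lower in the same libraries, with 6 of 8 passing as lower and 0 as higher. Zbtb46 and Cd209a, with log2 fold changes of -0.04 and 0.35, did not pass. The summed level was 1134 to 1779 CPM in saline and 231 to 493 CPM in dexamethasone. Cd74, H2-Ab1 and H2-Eb1, at 9.64, 8.33 and 8.17 log2 CPM in saline, weigh most in that sum. Flt3, Zbtb46, Xcr1, Clec9a and Cd209a had means of 0.93 to 2.51 in saline. The sum thus follows Cd74, H2-Ab1 and H2-Eb1 and is not a measure of dendritic cell number. The part of dendritic cells in Itgax was not tested.

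**Figure D2:**
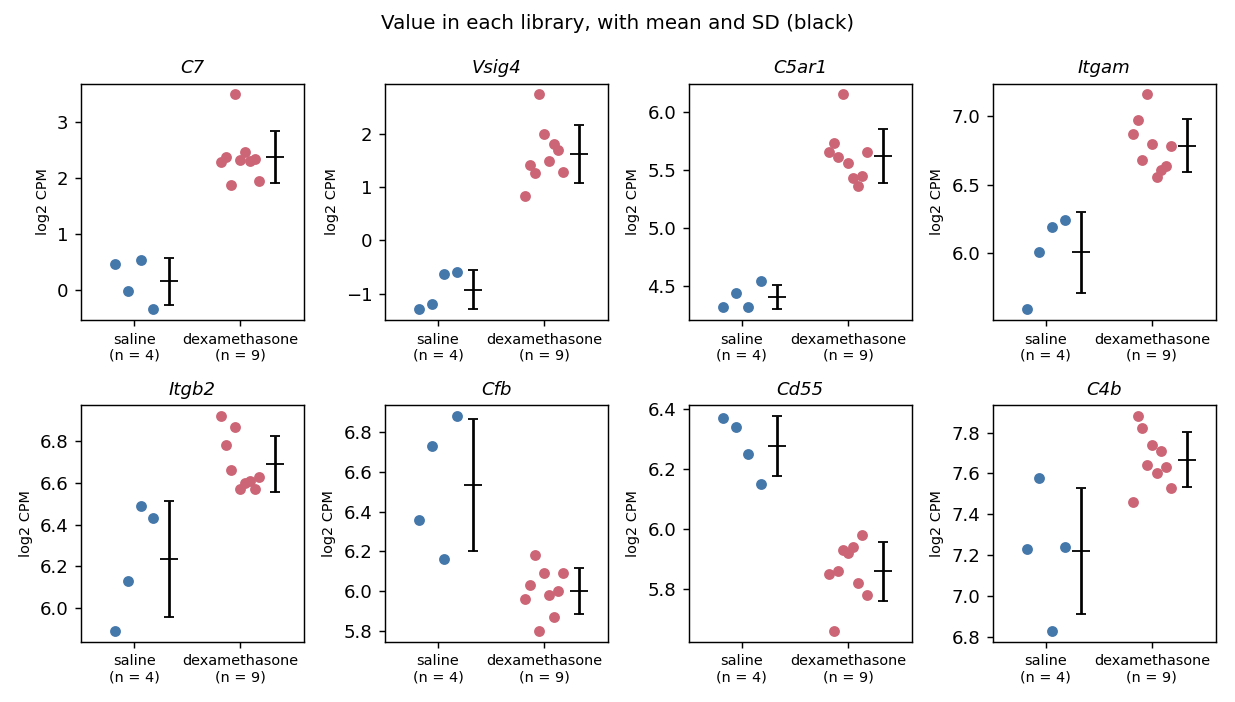
Log2 CPM of 8 complement genes in each saline (blue, n = 4) and dexamethasone (red, n = 9) library, with mean and SD in black; each panel has its own vertical scale. The groups are apart for C7, Vsig4, C5ar1, Itgam and Itgb2 (dexamethasone higher) and for Cd55 (dexamethasone lower), while Cfb and C4b overlap.

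Macrophage markers themselves showed no common shift, with 2 of 12 higher and 3 lower, and a summed level of 2284 to 3283 CPM in saline and 2404 to 2904 CPM in dexamethasone. Neutrophils also carry C5ar1, Itgam and Itgb2. Their 10 markers summed to 32.4 to 407 CPM in saline and 35.6 to 71.2 CPM in dexamethasone, with 1 higher and 2 lower. Without saline library 3, which had the highest neutrophil list mean, the log2 fold changes of C5ar1, Itgam and Itgb2 were 1.18, 0.84 and 0.54. The neutrophil list mean was then 0.58, -0.24 and -0.14 log2 CPM in saline libraries 1, 2 and 5 and 0.25 to 2.29 in dexamethasone libraries, so it ran mostly higher in the group where these genes were higher, and its part in them was not tested. Set against the mean of the macrophage markers in the same library, C5ar1 differed between groups by 1.26, Vsig4 by 2.59, Itgam by 0.82, Itgb2 by 0.50 and C3ar1 by 0.30 on the log2 scale. Cfp, which encodes properdin and comes from myeloid cells, differed by 0.34. For C3ar1 the adjusted p was 0.00483 and for the other 5 genes 0.00266 (exact two-sided permutation test over 715 splits, adjusted over 19 such values), and in all 6 the groups did not overlap. The C3ar1 difference did not pass with the median of the markers in place of their mean (0.22, adjusted p 0.0797). C5ar2 and Itgax differed by -0.01 and -0.24 relative to the markers and did not pass, though Itgax did without saline library 2 (-0.41, adjusted p 0.037). C5ar1, Vsig4, Itgam, Itgb2, C3ar1 and Cfp thus moved further than the marker mean, in which opposite moves cancel. The log2 fold changes of single markers ran from -0.50 (Ms4a7) to 0.47 (Cd68). Those of Itgb2 (0.46), Cfp (0.30) and C3ar1 (0.25) lay inside that range. The comparison says nothing of which cells changed.

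The C1q chains, the recognition unit of the classical arm, are C1qa, C1qb and C1qc, neighbours on chromosome 4 between 136880126 and 136898844 (mm10). C1qa was at 8.02, 8.18, 8.21 and 8.73 log2 CPM in saline and 8.16 to 8.42 in dexamethasone. C1qb had 5.68 to 6.44 in saline and 5.96 to 6.21 in dexamethasone, and C1qc 7.94 to 8.59 and 8.08 to 8.30. All 3 dexamethasone ranges lay inside the saline range. The log2 fold changes were 0.00 (95% confidence interval -0.20 to 0.21), 0.01 (-0.18 to 0.21) and -0.01 (-0.20 to 0.18). The SD was 0.31, 0.31 and 0.29 in saline (n = 4) and 0.09, 0.07 and 0.08 in dexamethasone (n = 9), a difference in spread that was not tested. In saline the chains were lowest in library 1 and highest in library 5, as was the macrophage marker mean, at 6.57 and 7.13. Relative to that mean C1qa, C1qb and C1qc differed between groups by 0.05, 0.06 and 0.04 (exact permutation, adjusted p 0.491, 0.394 and 0.517). Without saline library 2 the C1qb value was 0.12 (adjusted p 0.037).

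**Figure D3:**
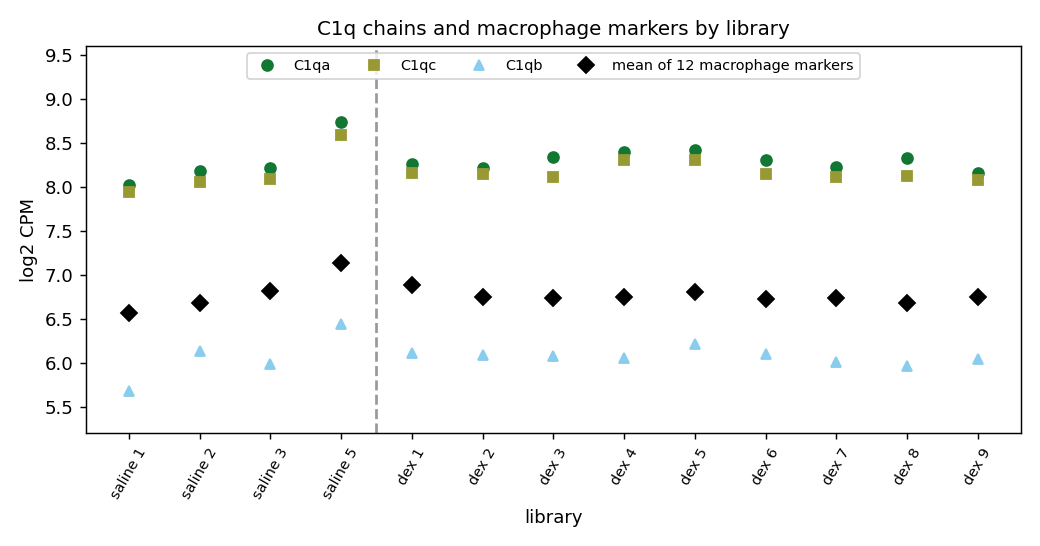
Log2 CPM of C1qa, C1qc and C1qb and the mean log2 CPM of 12 macrophage markers (diamonds) in each of the 13 libraries, saline to the left of the dashed line. All 4 series are highest in saline library 5 and lowest in saline library 1.

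The proteases bound to C1q fell by small amounts. C1s1, which cleaves C4 and C2, had 7.0, 7.41, 6.97 and 6.98 log2 CPM in saline and 6.67, 6.78 and 6.85 as lowest, median and highest in dexamethasone. C1ra, which activates it, had 5.67, 5.94, 5.63 and 5.71 in saline and 5.34, 5.50 and 5.61 in dexamethasone. Neither overlapped between groups, and for both the highest value was saline library 2. C1s1 fell by 0.31 ± 0.07 (SE; limma adjusted p 0.00181), and by 0.20 without saline library 2. C1ra fell by 0.26 ± 0.06 (limma adjusted p 0.00324). C1qa minus C1ra was 2.55 ± 0.34 and 2.81 ± 0.11 (exact permutation, adjusted p 0.0839). The difference passed without saline library 5 (0.42, adjusted p 0.00682). C1rl, a C1r-like protease, had a log2 fold change of 0.27 ± 0.13 (limma adjusted p 0.086). It passed without dexamethasone library 1 (0.31, adjusted p 0.0483). Masp1, a lectin arm protease, fell by 0.24 ± 0.08 (limma adjusted p 0.0227). It did not pass once saline library 2 (adjusted p 0.0652) or 3 (adjusted p 0.0726) was left out. Its gene shares bases with Rtp4 in the RefSeq table, and whether counting used strand is not given in the sources used here. C2, the classical convertase protease, and Colec12, a scavenger collectin, had log2 fold changes of -0.15 and -0.12 and did not pass. Colec12 passed without saline library 1 (-0.20, limma adjusted p 0.0276).

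C4b and C3, the proteins that are deposited on targets, both rose. C4b had 6.83 to 7.58 log2 CPM in saline and 7.46 to 7.88 in dexamethasone, a log2 fold change of 0.45 ± 0.10 (SE; limma adjusted p 0.00215), with 7 of 9 dexamethasone libraries above every saline library. C4a, its near copy, was measured at -0.40 ± 0.37 and -0.24 ± 0.28 log2 CPM (SD, n = 4 and 9), so reads between the copies are uncertain. C3, on which all arms converge, had 8.23 to 8.81 in saline and 8.60 to 9.12 in dexamethasone. It rose by 0.32 ± 0.11 (limma adjusted p 0.0286), a call that ended without saline library 3 (0.22, adjusted p 0.139) or 5 (0.27, adjusted p 0.0898). C3 minus C4b was 1.32 ± 0.16 and 1.19 ± 0.20 (exact permutation, adjusted p 0.346). Both rose relative to the fibroblast-like (fibro-adipogenic) marker mean, C4b by 0.49 and C3 by 0.36 (exact permutation, adjusted p 0.00266 and 0.0133). For C3 that call ended without saline library 3 (0.28, adjusted p 0.0576) or 5 (0.31, adjusted p 0.0504).

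Fibro-adipogenic markers were mixed, with 2 of 11 higher (Gsn and Mfap5) and 2 lower (Lum and Dpt) and a summed level of 13369 to 18103 CPM in saline and 13427 to 18336 CPM in dexamethasone. Relative to their mean C1ra and C1s1 differed by -0.22 and -0.27 (exact permutation, adjusted p 0.00266 for both). Against the median of the same markers these differences were 0.04 and -0.02 (adjusted p 0.692 and 0.745), so that comparison hangs on how the markers are averaged. Serping1, the C1 inhibitor, which blocks C1r and C1s, had a log2 fold change of 0.11 (95% confidence interval -0.04 to 0.26). It passed without saline library 2 (0.19, limma adjusted p 0.0358). Its difference from the marker mean, 0.15 (adjusted p 0.047), did not pass once any of saline libraries 2, 3 and 5 or dexamethasone libraries 2, 6, 7 and 8 was left out. Against the median of the same markers the differences were larger for Serping1 (0.40), C3 (0.61) and C4b (0.74), with an adjusted p of 0.00332 for each (exact permutation).

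In the alternative arm 2 of 4 genes rose (C3 and Cfp) and 1 fell, where 25.2% of all genes were higher and 22.9% lower. Cfb had 6.36, 6.73, 6.16 and 6.88 log2 CPM in saline and 5.80, 6.00 and 6.18 as lowest, median and highest in dexamethasone. Only dexamethasone library 3, at 6.18, reached into the saline range. The gene fell by 0.53 ± 0.11 (SE; limma adjusted p 0.000687). Cfp rose by 0.30 ± 0.09 (limma adjusted p 0.0131), and by 0.19 without saline library 1 (adjusted p 0.0689) or 0.24 without saline library 3 (adjusted p 0.0605). Cfd encodes adipsin, the factor D protease that fat cells secrete. It varied widely in both groups, from 8.11 to 8.90 in saline and 8.12 to 9.33 in dexamethasone, with a log2 fold change of 0.08 (95% confidence interval -0.33 to 0.49). Adipocyte markers rose in 7 of 8 cases, with a summed level of 1035 to 1574 CPM in saline and 1291 to 2328 CPM in dexamethasone. Relative to their mean Cfd fell, with no overlap between groups, at 2.06 ± 0.09 and 1.45 ± 0.26 (SD, n = 4 and 9; exact permutation, adjusted p 0.00266).

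The 2 terminal genes among the members differed. Of the other terminal component genes, Hc (C5), C8a, C8b and C9 were not among the measured genes, and C8g had 14 to 51 reads. C7 binds to the growing attack complex and anchors it in the membrane. It had 0.46, -0.03, 0.54 and -0.35 log2 CPM in saline, which are 23 to 41 reads, and 1.88 (lowest), 2.32 (median) and 3.50 (highest) in dexamethasone, or 109 to 316 reads. No dexamethasone library came near the saline range, and library 4 stood above the other 8. The rise was 2.23 ± 0.24 on the log2 scale (SE; limma adjusted p 3.44e-06), 2.09 without dexamethasone library 4 and 1.56 on the scale of log2 of CPM plus 1 (adjusted p 9.72e-06). Relative to the fibro-adipogenic mean it was 2.26 (exact permutation, adjusted p 0.00266). C6, which precedes C7 in the complex, had a log2 fold change of -0.47 ± 0.24 (limma adjusted p 0.112) on 24 to 73 reads. Without saline library 3 C6 passed as lower (-0.70, adjusted p 0.0254). Per kilobase of exon, C6 and C7 ranged from -1.56 to -0.50 and from -1.77 to -0.88 in saline, overlapping, and from -2.11 to -0.73 and from 0.46 to 2.08 in dexamethasone, with C7 above (log2 CPM per kb).

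**Figure D4:**
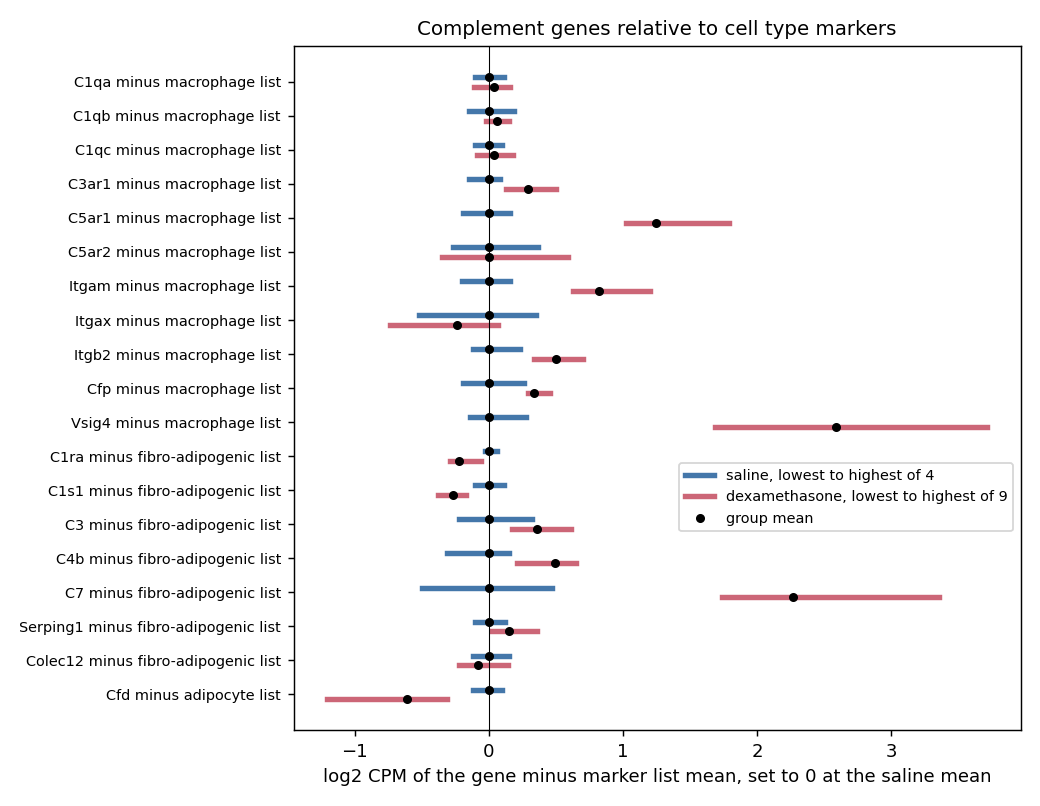
Log2 CPM of 19 genes minus the mean of a marker list in the same library, set to 0 at the saline mean; blue bars span the 4 saline and red bars the 9 dexamethasone libraries, dots are group means. The ranges of C1qa, C1qb and C1qc overlap between groups, whereas C5ar1, Itgam, Vsig4 and C7 lie to the right and Cfd to the left.

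Among regulators on the cell surface, Cd55 fell most clearly. It had 6.37, 6.34, 6.25 and 6.15 log2 CPM in saline and 5.66, 5.86 and 5.98 as lowest, median and highest in dexamethasone. The groups did not overlap, and the fall was 0.42 ± 0.06 (SE; limma adjusted p 3.93e-05). The noncoding gene Cd55os shares bases with it, and reads of these genes cannot be told apart if counting ignored strand. Cfb minus Cd55, the convertase protease against its decay factor, was 0.25 ± 0.38 and 0.14 ± 0.16 (exact permutation, adjusted p 0.471). Cd59a, which blocks the attack pore, fell by 0.21 ± 0.07 (limma adjusted p 0.0224), and did not pass once saline library 1 was left out (adjusted p 0.112). Cr1l, the rodent regulator Crry that covers most mouse cells, had a log2 fold change of 0.07 (95% confidence interval -0.03 to 0.17). Cd46, a cofactor for C3b cleavage that is mostly confined to the testis in mice, had -1.29, -0.94, -1.19 and -2.12 log2 CPM in saline, or 7 to 12 reads. Its dexamethasone values were -1.08, -0.54 and -0.04 as lowest, median and highest, or 15 to 31 reads. It rose by 0.86 ± 0.27 (limma adjusted p 0.0148), with 1 of 9 dexamethasone libraries inside the saline range. On the scale of log2 of CPM plus 1 the rise was 0.30 (adjusted p 0.0189). The call ended without saline library 5 (0.62, adjusted p 0.0678), and the start of the gene shares bases with the end of Cr1l on the same strand in the RefSeq table, so its few reads are uncertain.

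Of the soluble regulators, Clu, which encodes clusterin, a chaperone that also blocks the attack pore, rose by 0.45 ± 0.13 (SE; limma adjusted p 0.0097), from 6.28 to 6.76 in saline to 6.58 to 7.42 log2 CPM in dexamethasone. Vtn, encoding vitronectin, had a log2 fold change of -0.15 (95% confidence interval -0.39 to 0.09). C1qbp, grouped here with the regulators, encodes a mainly mitochondrial protein that can bind C1q. It fell by 0.15 ± 0.05 (limma adjusted p 0.0129), and the gene shares bases with Rpain. C1qtnf6, a secreted relative of C1q, had a value of -0.12 (95% confidence interval -0.31 to 0.06) and passed as lower without saline library 1 (-0.23, adjusted p 0.0243).

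Levels were compared between genes per kilobase of exon (GENCODE M21 on GRCm38, which may differ from the authors' gene models). The length joins the exons of all annotated transcripts of a gene. It can exceed that of the transcript expressed, which lowers the value, so the order depends on it. C1qa and C1qc, at means of 8.29 and 8.17 log2 CPM in saline, have joined lengths of 1040 and 1931 bases. Cfd and C1qa were the highest, at 8.69 and 8.23 log2 CPM per kb in saline, and their ranges over libraries overlapped. C1qc followed at 7.22, Serping1 at 6.53, C3 at 6.17 and C1qb at 5.94. The range of C3 overlapped with those of Serping1 and of C1qb, and C1qc overlapped with neither of its neighbours. The same 6 genes led in dexamethasone in the same order. C5ar1 moved from place 22 to 16, C7 from 30 to 27 and Vsig4 from 31 to 26 of 32.

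Other complement genes outside the 32 were taken from a list of 43, of which 22 were measured. Of these 7 were higher and 5 lower, where 25.2% of all genes were higher and 22.9% lower. Fcna, encoding ficolin A, a lectin arm recognition protein of macrophages, rose 2.53-fold from 3.60 ± 0.20 to 4.95 ± 0.39 log2 CPM (SD, n = 4 and 9). Its groups did not overlap (limma adjusted p 2.56e-05). Calr, the chaperone calreticulin that binds C1q on dying cells, rose 1.56-fold, Thbd, encoding thrombomodulin, 1.31-fold and Cd93, an endothelial receptor, 1.17-fold. Cr2, the C3d receptor of B cells, fell from 1.67 ± 0.31 to -1.04 ± 0.70, 6.54-fold lower. In the same libraries all 10 lymphocyte markers were lower, with a summed level of 35.6 to 54.1 CPM in saline and 4.61 to 13.9 CPM in dexamethasone, and their part in the Cr2 value was not tested. C8g, a terminal component gene, was 1.83-fold lower on 14 to 51 reads. Among relatives of C1q and TNF, C1qtnf3 and C1qtnf7 rose 1.62- and 1.48-fold, while C1qtnf1, C1qtnf9 and C1qtnf12 were 1.49-, 1.73- and 1.22-fold lower.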

How the data were processed

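Messenger RNA of 13 mice was compared, with 1 library per mouse. Per the submitters' processing notes, featureCounts 2.0.1, limma 3.50.1 and the build mm10 were used; the aligner, gene models and strand setting are not stated in what was used here. Deposited by the authors were log2 CPM per library and their own comparison as log2 fold change and p-value. All 18 members called in the authors' deposited table were called here in the same direction. The table made without the excluded saline mouse (14911 genes) was the main one; 1 column, that mouse's, was not used. With an offset of 0.5 reads removed, 100% of values came out as whole reads (tolerance 0.01).

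The groups were compared two-sided by limma 3.58.1 in R 4.3.3 (eBayes with trend), and p-values were adjusted over all genes by Benjamini-Hochberg, with calls at 0.05. Within-library differences were compared by exact permutation over 715 splits (smallest p 0.0014). A marker list was averaged as log2 CPM. Coordinates were matched to RefSeq (GRCm38.p6) by Entrez identifier for all 32 members. Some genes of the lists are counted but not reported here by name. The members and lists were chosen with earlier results of these data known. All members are named. For called members of at least 1.5-fold or without overlap, and for Cfb, each saline value is printed. Their dexamethasone values are given as lowest, median and highest. Libraries of the same group differed by a chi-square per gene of at least 7.22, so each counted as 1 sample. Of the steps, the limma fit and the permutation test were tried on simulated data. For the fit, changes were planted only in genes above a minimum number of reads. Figures used matplotlib 3.10.9.

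Alternatives were the other deposited table (14970 genes), log2 of CPM plus 1, a filter at a mean log2 CPM of 1, quantile normalisation, median centring, robust priors, moderation without a trend, each library left out, voom on recovered reads, the mouse number as a block, and the median of a marker list. A change of sign was counted only where the value passed in 1 of the fits compared.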

Additional observations from a re-analysis of the deposited data

Results flagged for a closer look

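Single libraries stood far from the rest of their group for 4 of 64 gene and group combinations tested, where chance gives about 1 in 20. C7 was at 3.50 log2 CPM in dexamethasone library 4, against 2.24 ± 0.21 in the other 8 (SD). C5ar1 was at 6.15 in the same library, against 5.56 ± 0.13. C1s1 was at 7.41 in saline library 2, against 6.99 ± 0.02 in the other 3. Colec12 was at 4.78 in saline library 1, against 5.10 ± 0.01.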

How the results depend on the processing

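In the 8 alternatives that kept all 13 libraries and fitted single genes, each member that could be fitted kept its call and direction. The counts stayed at 11 higher and 7 lower, or 9 and 7 under the filter on low genes, where Vsig4, Cd46 and C6 were not fitted. Under that filter 3516 of all 12519 genes were higher and 2990 lower. In the other alternatives of this kind 3449 to 3741 of all 14911 or 14970 genes were higher and 3381 to 3736 lower. On the scale of log2 of CPM plus 1 the log2 fold changes of low genes shrank, from 2.54 to 1.43 for Vsig4, 2.23 to 1.56 for C7, 0.86 to 0.30 for Cd46 and -0.47 to -0.29 for C6. With 1 library left out, 9 to 12 members were higher and 7 to 8 lower, where 3357 to 3767 of all 14911 genes were higher and 2949 to 3409 lower. The members C1ra, C1s1, C4b, Cfb, C7, Cd55, C1qbp, C5ar1, Itgam, Itgb2 and Vsig4 kept their call in every alternative that fitted them. The labels do not say that mouse numbers pair mice, and the deviations of same-numbered mice correlated at -0.07 to 0.12, each saline mouse best with its own number in 2 of 4 cases. On the 8 libraries numbered in both groups, 9 members were higher and 6 lower with the number as a replicate block, and 10 and 5 with no replicate block. Over all 14911 genes, 3054 were higher and 2905 lower with the block, and 3154 and 2970 without it. Masp1, Cd59a and Cd46 did not pass in either of these fits (adjusted p 0.117 to 0.176), Clu did not pass with the block (0.0645; 0.05 without it), and C6 passed as lower with the block only (adjusted p 0.0274). Against the median of the fibro-adipogenic markers, C1ra reversed from -0.22 to 0.04 (adjusted p 0.692), and the cause was not tested. Depth limits Vsig4, C7, Cd46, C6, C5ar2 and C1rl, which had under 100 reads in at least 1 library.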

Other observations

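Transcription factors known to act at complement genes moved in both directions: of 11 measured, 6 were higher and 4 lower, against 48.1% of all genes called. The interferon factors Irf8 and Irf1 were 1.79- and 1.27-fold lower, with no overlap between groups. Cebpd and Stat3, which act in the acute phase response, rose 1.63- and 1.34-fold, also with no overlap. Spi1, Nfkb1 and Rela rose 1.26-, 1.23- and 1.12-fold, and Nr3c1, the glucocorticoid receptor, was 1.25-fold lower. Cebpb had a log2 fold change of 0.12 ± 0.16 (SE; limma adjusted p 0.579).

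Of 5 liver markers only Alb was measured, at 0.67 and 1.74 log2 CPM in saline and dexamethasone (limma adjusted p 0.0269). The 5 endothelial markers had 0 higher and 0 lower in limma, with a median log2 fold change of 0.01.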
